A study of Rattus norvegicus with 13 samples.

Results

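The genes described here are 8 that mark the choroid plexus: Ttr, Folr1, Slc4a5, Clic6, Aqp1, Kl, Sostdc1 and Otx2. They were taken by symbol from an FPKM table of 17366 rows, without using any measured value, and filled 9 rows because Otx2 is listed under 2 loci. The table covers hypothalami of 13 rats. Of these, 6 ate a high-fructose diet (55% fructose) and 7 ate standard chow (0.30% fructose), in both cases from postnatal day 25. An overnight fast on day 79 came before an intraperitoneal dose of glucose (2 g per kg) or of saline, and the brain was taken 1 h later, on day 80. The labels do not tell which of the 13 rats had glucose, nor their sex, strain or cage, so no diet value below is adjusted for these. Each title carries a first number whose meaning is not stated, which runs from 18 to 26 in fructose rats and from 1 to 7 in chow rats, and whatever it stands for cannot be told apart from diet. Chow replicates 1 and 2 share the first number 1, so they may not be independent. No member passed the diet test with either of them left out, but none passed with all rats either. Over all genes 466 passed with all rats, 859 without chow replicate 1 and 89 without chow replicate 2. Whole hypothalami were lysed, and mRNA libraries were built from their total RNA.

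The choroid plexus is a folded epithelium that hangs into the brain ventricles and secretes cerebrospinal fluid. Its cells pump sodium, bicarbonate and chloride, with water following, and release carrier proteins for thyroid hormone and vitamins. It is not part of the hypothalamus, but the third ventricle runs down the middle of the hypothalamus and has plexus at its roof. Plexus genes are therefore commonly read in dissected pieces as a measure of attached ventricular tissue. In bulk RNA, fewer cells of a type and less RNA per cell cannot be told apart.

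All 8 symbols were in the table, 7 were above 0 in all 13 rats, and 4 had a mean of at least 0.5 FPKM, the level required for the diet test. FPKM is a level per length of transcript, so genes can be compared with each other on this scale. The order of mean levels over the 13 rats was Ttr at 17.4 FPKM, Folr1 at 2.40, Clic6 at 0.958, Slc4a5 at 0.662, Kl at 0.416, Aqp1 at 0.258 and Sostdc1 at 0.246. Ttr stood 5508th among the 17366 rows by mean level and Folr1 stood 10214th. All neighbours in this order, from Ttr to Sostdc1, overlapped in their ranges over rats.

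**Figure D1:**
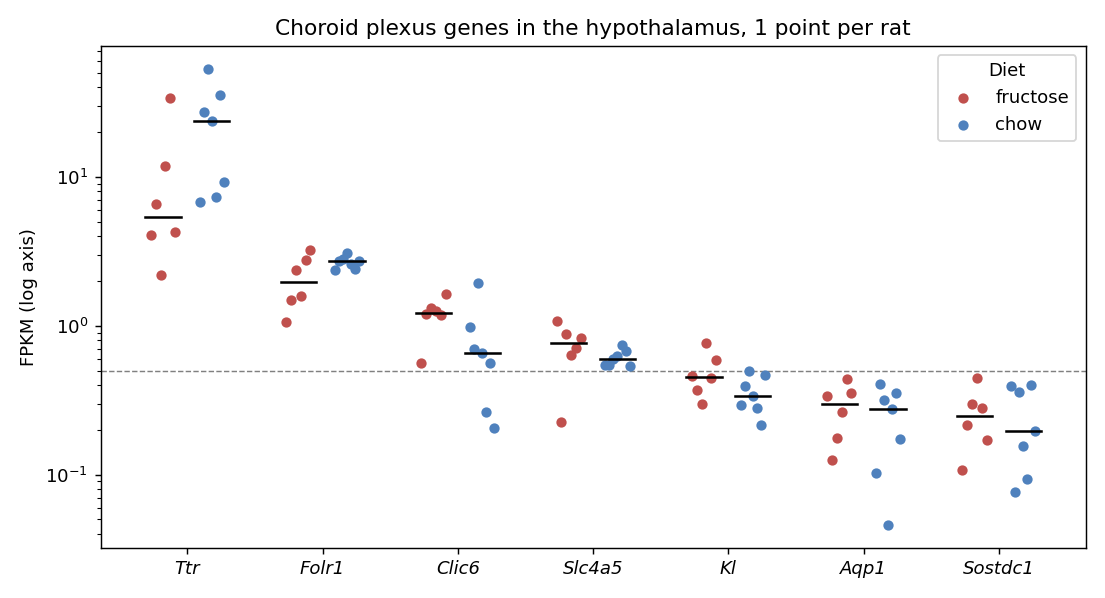
FPKM of the 7 members above 0 (log axis), 1 point per rat, fructose rats left of chow rats within each gene, with black bars at the medians and a dashed line at 0.5 FPKM. Ttr spreads from 2.19 to 53.4 FPKM, whereas Folr1 stays between 1.07 and 3.22 FPKM.

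Ttr, transthyretin, carries thyroid hormone and, bound to retinol-binding protein, vitamin A, and it is a main secreted product of plexus cells. In the fructose rats Ttr had a lowest value of 2.19, a median of 5.41 and a highest value of 33.9 FPKM, against 6.83, 23.9 and 53.4 FPKM in the chow rats. In 4 of 6 fructose rats Ttr lay below every chow rat, and fructose replicate 5 lay above 5 of the 7 chow rats, so the diets overlapped. The highest rat exceeded the lowest by 24.3-fold. The standard deviation within diet, on the log2(FPKM + 0.5) scale, was 1.22 and exceeded that of 99.95% of the 4389 tested genes whose mean level was within 2-fold of that of Ttr.

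Folr1, folate receptor alpha, moves folate across the plexus into the fluid. In fructose rats it ranged from 1.07 to 3.22 FPKM with a median of 1.97, against 2.36 to 3.09 FPKM with a median of 2.71 in chow rats. The chow values had a coefficient of variation of 9.40%, against 74.1% for Ttr in the same rats. Of the 6 fructose rats 4 lay below all chow values of Folr1 and 1 above. Folr1 came to 12 to 20 sequenced fragments in the 6 chow rats where they could be estimated, as described below. Counting error alone gives a wider spread at such numbers, so the narrow chow range is not read as a trait of Folr1. The ratio of Ttr to Folr1 in FPKM ran from 0.932 to 12.2 in fructose rats and from 2.82 to 18.9 in chow rats, a 20.3-fold span over all rats. The ratios of Ttr to Clic6 and to Slc4a5 spanned 37.9-fold and 35.6-fold, wider than the 24.3-fold span of Ttr itself.

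Slc4a5, a sodium bicarbonate cotransporter, and Clic6, of the chloride intracellular channel family, belong to the ion transport side of the tissue. Slc4a5 had a lowest, median and highest value of 0.224, 0.766 and 1.08 FPKM in fructose rats, against 0.534, 0.600 and 0.742 FPKM in chow rats. The lowest of all was fructose replicate 2, which was also the lowest fructose rat for Aqp1 but for none of the other members above 0. Clic6 had 0.564, 1.23 and 1.62 FPKM in fructose rats, against 0.206, 0.657 and 1.94 FPKM in chow rats. The chow rats held both its highest and its lowest value, in chow replicates 3 and 7, and 5 of 6 fructose rats were above the chow mean. Aqp1, the water channel of the fluid-facing membrane, had 0.126, 0.299 and 0.440 FPKM in fructose rats, against 0.0459, 0.274 and 0.403 FPKM in chow rats.

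Kl, klotho, a co-receptor for the hormone FGF23 that is also made in kidney and by some neurons, had 0.300, 0.450 and 0.770 FPKM in fructose rats, against 0.216, 0.336 and 0.5001 FPKM in chow rats. Sostdc1, a secreted antagonist of BMP and Wnt signals, had 0.107, 0.247 and 0.447 FPKM in fructose rats, against 0.0762, 0.196 and 0.403 FPKM in chow rats. Neither gene separated the diets: 2 of 6 fructose rats lay above all chow rats for Kl, and 1 of 6 for Sostdc1. Otx2, a homeobox factor needed for plexus development, was listed at 0 in all 13 rats in both of its rows. Of the 940 rows with such a locus suffix 655 (69.7%) were listed at 0 in every rat, against 14.0% of the other rows, and Npy, a neuropeptide of the hypothalamus, was among them. The 0 of Otx2 is therefore given as a listing and not as a measured absence.

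The low members rested on few sequenced fragments. In 11 of the 13 libraries low FPKM values fell on whole multiples of 1 step per gene, once the libraries were put on a common scale, and the step was read as 1 fragment. Total FPKM per library ran from 556902 to 608058, and the read depth itself is not known. The value of 1 fragment differed between libraries by little, from 0.817 to 1.15 relative to the median library. At a tolerance of 0.12 of a step, steps were resolved for 6 members but not for Ttr. Sostdc1 came to 2 to 5 fragments in fructose rats and 1 to 4 in chow rats, Aqp1 to 2 to 8 in fructose rats and 1 to 9 in chow rats, and Kl to 7 to 20 in fructose rats and 5 to 13 in chow rats. Folr1 came to 7 to 19 fragments in fructose rats and 12 to 20 in chow rats, and Slc4a5 to 5 to 23 in fructose rats and 13 to 19 in chow rats. Clic6 came to 16 to 27 fragments in fructose rats and 3 to 31 in chow rats. Fructose replicate 1 and chow replicate 1 did not fall on whole steps (for Folr1 the fructose rat stood at 5.64 steps and the chow rat at 13.4) and are left out of these numbers.

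Set against counting error and pooled over the diets, only 1 of the 6 resolved members varied by clearly more than its fragments allow. The variance within diet divided by that of counting alone was 4.92 for Clic6, but 0.653 for Folr1, 0.748 for Sostdc1, 1.19 for Slc4a5, 1.21 for Kl and 1.23 for Aqp1. For Folr1, Sostdc1, Kl and Aqp1 a difference between rats of the same diet beyond counting was not detectable at this depth in the resolved libraries. Within the pooled value of Slc4a5 1 rat stood low, fructose replicate 2 with 5 fragments, against 17 to 23 in the other 4 resolved fructose rats. Within that of Clic6 1 rat stood high, chow replicate 3 with 31 fragments, against 3 to 13 in the other resolved chow rats. The fructose rats held 16 to 27 fragments of Clic6, and the ratio was not taken for each diet alone or without chow replicate 3.

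**Figure D2:**
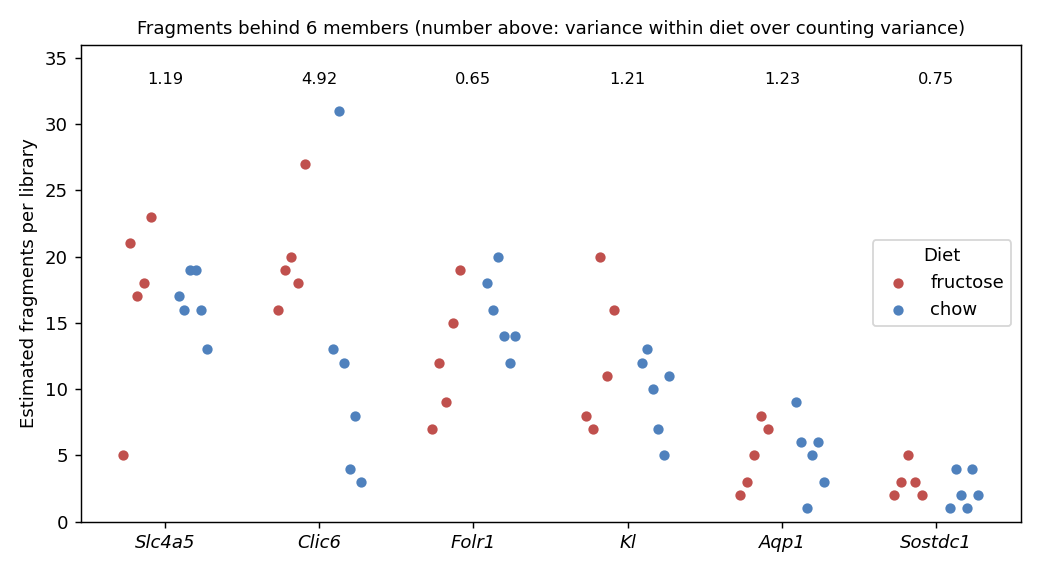
Estimated fragments per library for 6 members in 5 fructose rats (left of each pair) and 6 chow rats (right), 1 point per rat, with the variance within diet over the counting variance above each gene. Sostdc1 and Aqp1 never reach 10 fragments, and Clic6 alone stands at a ratio of 4.92.

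Plexus genes read as a measure of attached tissue are usually read as 1 group, so the next comparison asked whether the members went up and down together between rats of the same diet. Over the 6 pairs of the 4 tested members, Pearson r of the deviations from the diet mean lay between -0.19 and 0.39, with 4 of 6 positive. No pair passed (0 of 6 by permutation within diet with 100000 resamples, Benjamini-Hochberg over the 6 pairs, smallest adjusted p = 0.413, and 0 of 6 also before adjustment). Of the 6 pairs 5 hold Folr1 or Slc4a5, whose variance within diet was 0.653 and 1.19 times that of counting in the resolved libraries. These ratios pool the diets and leave out fructose replicate 1 and chow replicate 1, whereas r covers all 13 rats. Fructose replicate 1 was the lowest rat for Folr1, at 1.07 FPKM, and the highest for Slc4a5, at 1.08 FPKM. A shared change smaller than their counting spread would therefore hardly be detectable in them at this depth. Their levels spread less than that of Ttr. In chow rats the coefficient of variation was 9.40% for Folr1, 12.8% for Slc4a5 and 74.1% for Ttr. In fructose rats it was 40.1%, 39.8% and 114%. Folr1 and Slc4a5 came to 12 to 20 and 13 to 19 fragments in the resolved chow rats. At such numbers counting error alone gives a wider spread than their chow values show. The narrow chow spread is therefore not read as a trait of these 2 genes. Ttr and Clic6 is the pair that holds neither Folr1 nor Slc4a5, and Clic6 itself came to 3 to 31 fragments in the resolved chow rats. Ttr and Folr1 had r = 0.18 and Spearman rho = 0.14 (permutation p = 0.632 and 0.675, adjusted p = 0.759 and 0.743). Their r was 0.17 within the fructose rats and 0.36 within the chow rats (exact permutation p = 0.765 and 0.416), and -0.14 without fructose replicate 5 and chow replicate 3, the pair of rats farthest from the median for Ttr. Ttr and Clic6 had the highest r of the 6, at 0.39 with rho = 0.10 (permutation p = 0.193 and 0.743, adjusted p = 0.580 and 0.743). It was 0.05 within the fructose rats and 0.60 within the chow rats (exact permutation p = 0.908 and 0.154), and 0.19 without those 2 rats.

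Folr1 and Clic6 had r = 0.37 with rho = 0.35 (permutation p = 0.0688 and 0.216, adjusted p = 0.413 and 0.743). Within the fructose rats r was 0.79 (exact permutation p = 0.0250), within the chow rats 0.11 (exact permutation p = 0.827), and over both it dropped to 0.05 without fructose replicates 1 and 6, so it rested on these. Slc4a5 had r = -0.17 with Ttr, 0.12 with Folr1 and -0.19 with Clic6 (permutation p = 0.620, 0.838 and 0.377), and rho = -0.23, 0.21 and -0.11 (permutation p = 0.473, 0.577 and 0.714). With the 3 low members added, which was decided after the data were seen, 15 of 21 pairs were positive with a median r of 0.15, and 0 of 21 passed before or after adjustment. The highest of the 21 was that of Clic6 and Sostdc1, at r = 0.50 and rho = 0.36 (permutation p = 0.111 and 0.241, adjusted p = 0.793 and 0.845), where Sostdc1 rests on at most 5 fragments a rat in the resolved libraries.

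**Figure D3:**
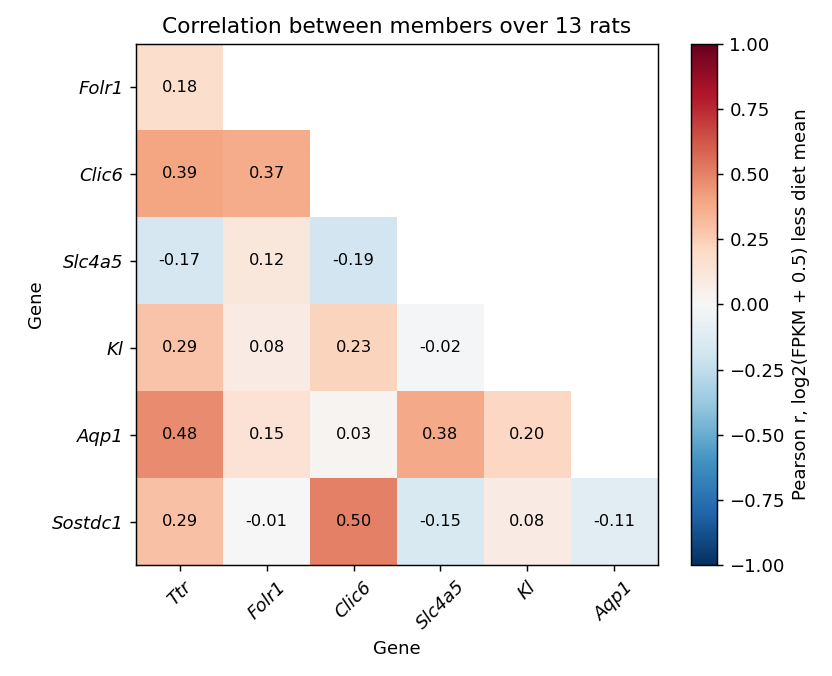
Pearson r between the 7 members above 0 over 13 rats, after taking the diet mean from log2(FPKM + 0.5), red for positive and blue for negative r. The values run from -0.19 to 0.50, and Slc4a5 is negative with Ttr, Clic6, Kl and Sostdc1.

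The comparison between diets asked whether fructose feeding went with a different level of plexus transcripts. None of the 4 tested members passed (limma, adjusted p under 0.05 over all 11837 genes tested), against 3.94% of all genes, while 1 of 4 was under 0.05 before adjustment, against 19.2% of all genes. An exact permutation test, with 1716 ways to split the animals, put 0 of 4 under 0.05 before adjustment, against 18.8% of all genes. With 4 genes, none called is close to what these shares give. Ttr averaged 10.5 ± 11.9 FPKM in fructose rats (SD, n = 6) and 23.3 ± 17.3 FPKM in chow rats (SD, n = 7). Its log2 fold change of FPKM + 0.5, fructose minus chow, was -1.30 ± 0.58 (SE, limma adjusted p = 0.237, unadjusted p = 0.0413, exact permutation p = 0.0851), and 5 of 6 fructose rats were below the average chow rat. The 95% interval ran from -2.54 to -0.06. Without fructose replicate 5 the change was -1.74 (adjusted p = 0.0647), and when each of the 13 rats was dropped in turn its adjusted p lay between 0.0647 and 0.392.

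Folr1 averaged 2.08 ± 0.835 FPKM in fructose rats (SD, n = 6) and 2.67 ± 0.251 FPKM in chow rats (SD, n = 7), a log2 fold change of -0.36 ± 0.17 (limma adjusted p = 0.276, 95% interval -0.73 to 0.01). It was -0.23 without fructose replicate 1, its lowest rat. Clic6 averaged 1.19 ± 0.347 FPKM in fructose rats and 0.757 ± 0.585 FPKM in chow rats, a log2 fold change of 0.51 ± 0.25 (limma adjusted p = 0.291, 95% interval -0.03 to 1.05). Slc4a5 averaged 0.725 ± 0.289 FPKM in fructose rats and 0.609 ± 0.0779 FPKM in chow rats, with a log2 fold change of 0.11 ± 0.16 (limma adjusted p = 0.783, 95% interval -0.24 to 0.45). It was 0.03 without fructose replicate 1 and 0.25 without fructose replicate 2. Of the 4 members 2 stood higher and 2 lower on fructose, with a median log2 fold change of -0.13, against 0.00085 over all genes tested. With the filter removed, the low members had log2 fold changes of 0.20 for Kl, 0.09 for Aqp1 and 0.03 for Sostdc1, with limma adjusted p = 0.391, 0.790 and 0.930. The pseudocount of 0.5 exceeds the mean level of these 3 genes, so this scale understates their changes.

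**Figure D4:**
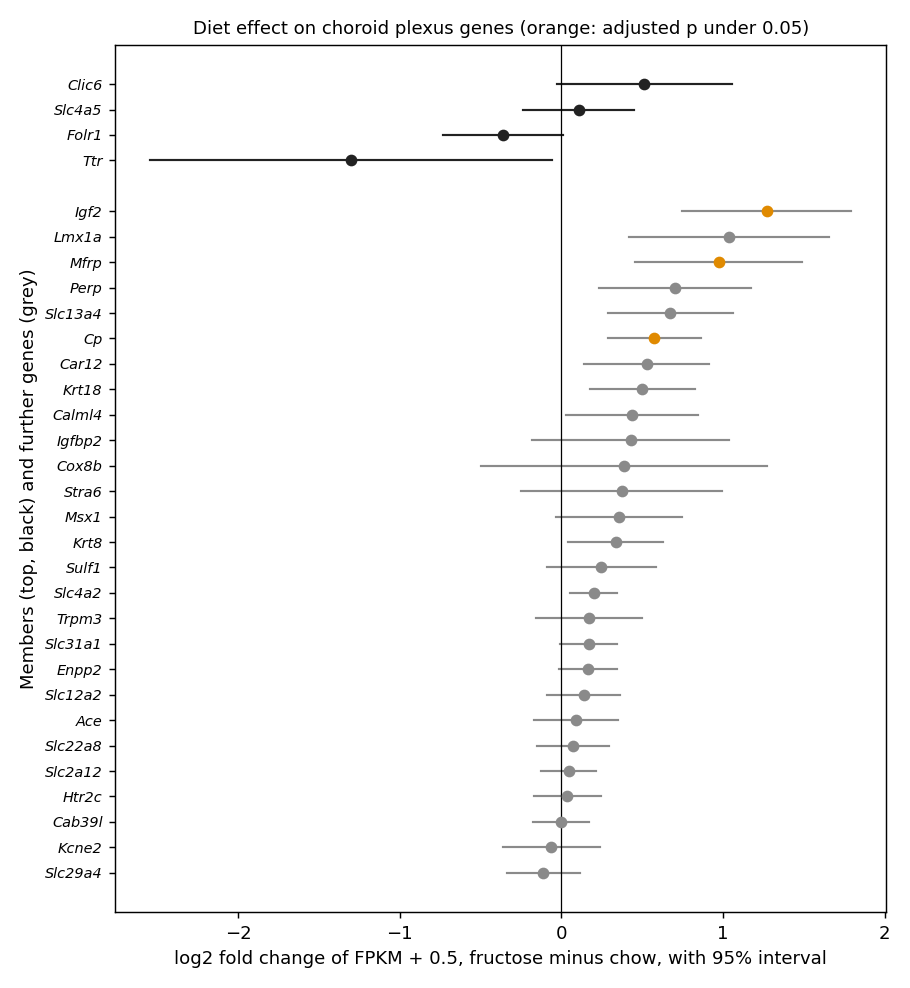
Log2 fold change of FPKM + 0.5, fructose minus chow, with 95% intervals from limma for the 4 tested members (top, black) and 27 further choroid plexus genes (grey), with orange points for adjusted p under 0.05. The members lie on both sides of 0 and none is orange, while Igf2, Mfrp and Cp are.

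A list of 40 further genes known from choroid plexus was read beside the members, of which 36 were in the table and 27 were tested. Of the 27, 3 rose on fructose, 0 fell and 24 did not pass, and 11 were under 0.05 before adjustment, against 19.2% of all genes. The 3 are 11.1% of the 27, against 1.66% of all genes called higher. The median log2 fold change was 0.33, and 24 of 27 were positive, against 50.3% of all genes tested. Igf2, a growth factor secreted by plexus and by meninges, averaged 28.6 ± 12.1 FPKM in fructose rats (SD, n = 6) and 10.8 ± 2.45 FPKM in chow rats (SD, n = 7), a log2 fold change of 1.27 ± 0.25 (limma adjusted p = 0.0196, higher than every chow rat in 5 of 6). Mfrp, a membrane protein best known from retinal pigment epithelium, averaged 2.58 ± 0.832 FPKM in fructose rats and 1.12 ± 0.593 FPKM in chow rats, a log2 fold change of 0.97 ± 0.24 (limma adjusted p = 0.0394). Cp, ceruloplasmin, a copper-carrying ferroxidase, averaged 3.83 ± 0.929 FPKM in fructose rats and 2.37 ± 0.335 FPKM in chow rats, a log2 fold change of 0.58 ± 0.13 (limma adjusted p = 0.0341). For Cp the diets did not overlap, with the lowest fructose rat above the highest chow rat, as held in either direction for 1.61% of all genes.

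Whether these genes passed depended on which rats were included, while the size of the changes moved little. With 1 rat left out in turn, the log2 fold change ran from 1.12 to 1.47 for Igf2, from 0.82 to 1.11 for Mfrp and from 0.50 to 0.65 for Cp. Without fructose replicate 4 none of the 27 passed (limma, with 12 under 0.05 before adjustment), where the log2 fold change of Igf2 was 1.21 (adjusted p = 0.0542) and the calls over all genes were 83, against 466 with all rats. Only 1 passed, Igf2, without fructose replicate 1 or 6 or without chow replicate 2, 4 or 7. When each of the 13 rats was dropped in turn, Mfrp was lost 9 times (fructose replicates 1, 2, 4, 5 and 6 and chow replicates 2, 4, 6 and 7) and Cp 8 times (fructose replicates 1, 3, 4 and 6 and chow replicates 2, 4, 5 and 7), with adjusted p up to 0.0969 and 0.0841.

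The hypothalamic label was checked against 20 markers, of which 19 were above 0 and Npy was listed at 0, with the neuropeptides Pmch and Hcrt highest. Pmch ranged from 1345 to 5669 FPKM in fructose rats and from 3607 to 7136 FPKM in chow rats. Of the 19 tested markers 1 rose, Tac1. The called genes of this and the next lists are named because they passed, after their values were seen. Over all genes 1.66% were called higher on fructose and 2.27% lower, the shares to set beside the counts in these lists. Genes of neighbouring tissue were present too and moved with diet. Summed over 10 genes of midbrain dopamine neurons, led by Th and Aldh1a1, levels ran from 207 to 583 FPKM in fructose rats and from 79.99 to 114 FPKM in chow rats, and 10 of 10 rose. Over 12 thalamus genes, led by Prkcd and Slc17a6, they ran from 246 to 646 FPKM in fructose rats and from 446 to 1156 FPKM in chow rats, and 7 of 12 fell (Prkcd, Lef1, Zic1, Zic4, Plekhg1, Kcnc2 and Rgs16). Over 9 blood cell genes, led by Hba1 and the row that joins Hbb with another locus, they ran from 499 to 2221 FPKM in fructose rats and from 241 to 618 FPKM in chow rats, and 4 of 7 tested rose (Hba1, Hba2, Hbb and Alas2). Over 14 genes of meninges and fibroblasts, led by Mgp and Slc13a3 with Col1a2 and Ogn listed at 0, they ran from 64.7 to 100.3 FPKM in fructose rats and from 53.9 to 72.4 FPKM in chow rats, and 4 of 11 tested rose, the matrix genes Col1a1, Dcn, Lum and Fmod. Col1a2 and Ogn, like Otx2, appear only in rows with a locus suffix, so their 0 is a listing and not a measured absence. The part of these neighbouring tissues and cells in the rises of Igf2, Mfrp and Cp was not tested.

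The further genes with the highest levels are also made widely outside the plexus. Enpp2, autotaxin, also a product of oligodendrocytes, averaged 140.0 ± 18.1 FPKM in fructose rats and 125 ± 12.6 FPKM in chow rats (limma adjusted p = 0.303). Htr2c, a serotonin receptor also made by neurons, averaged 62.0 ± 5.26 FPKM in fructose rats and 60.9 ± 9.88 FPKM in chow rats (adjusted p = 0.887). Slc12a2, a sodium potassium chloride cotransporter, averaged 55.6 ± 10.4 FPKM in fructose rats and 50.1 ± 5.74 FPKM in chow rats (adjusted p = 0.527). The other genes of the list under 0.05 before adjustment, all 8 higher on fructose and none passing after it, were Lmx1a, Perp, Slc13a4, Car12, Krt18, Calml4, Krt8 and Slc4a2. Lmx1a, a homeobox factor of the roof plate also made by midbrain dopamine neurons, averaged 7.80 ± 1.64 FPKM in fructose rats and 3.95 ± 2.13 FPKM in chow rats (log2 fold change 1.04, limma adjusted p = 0.0604). Slc13a4, a sulfate transporter, averaged 2.64 ± 0.845 FPKM in fructose rats and 1.43 ± 0.366 FPKM in chow rats (log2 fold change 0.67, limma adjusted p = 0.0520). Slc4a2, an anion exchanger, had the smallest of the 8 log2 fold changes at 0.20. These 8 genes and the next 5 were named after their values were seen, so neither group stands for the list. Kcne2, a potassium channel subunit, averaged 2.41 ± 0.634 FPKM in fructose rats and 2.51 ± 0.454 FPKM in chow rats (adjusted p = 0.866), at 20 to 38 fragments in fructose rats and 23 to 38 in chow rats. Kcnj13, a potassium channel of the fluid-facing membrane, came to 2 to 6 fragments in fructose rats and 0 to 7 in chow rats. Tmem72, a membrane protein, came to 0 to 4 fragments in fructose rats and 0 to 5 in chow rats. Cldn2, a tight-junction protein of leaky epithelia, came to 1 to 3 in fructose rats and 0 to 2 in chow rats, and F5, coagulation factor V, to 1 to 6 in fructose rats and 0 to 3 in chow rats. Cldn2 was above 0 in 6 of 6 fructose rats and in 1 of 7 chow rats (exact permutation p = 0.00291, unadjusted, on a total of 10 fragments in the resolved fructose libraries and 2 in the chow ones). The unadjusted exact permutation p was 0.664 for Kcne2, 0.506 for Kcnj13, 0.773 for Tmem72 and 0.116 for F5. Apart from Kcne2, these genes stood at 0 to 7 fragments in both diets, close to Aqp1 and Sostdc1.

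Of the other cells that touch the ventricle or the base of the brain, or lie behind the plexus at the roof of the third ventricle, 1 tested gene was called. These lists hold 2 to 9 tested genes each, and over all genes 3.94% were called, 19.2% were under 0.05 before adjustment and 50.3% were positive, so none called in a list this short is close to the share over all genes. None of 8 tested ependymal genes passed (limma, 3 under 0.05 before adjustment and all 8 positive), with sums of 65.1 to 98.7 FPKM in fructose rats and 63.3 to 89.1 FPKM in chow rats, led by Dynlrb2 and Rarres2. None of 7 tanycyte genes passed (2 before adjustment), with 215 to 226 FPKM in fructose rats and 190 to 246 FPKM in chow rats, led by Cd59, which is not restricted to them, and Crym. None of 9 endothelial genes passed (2 before adjustment), with 175 to 225 FPKM in fructose rats and 165 to 188 FPKM in chow rats, led by Cldn5 and Slco1c1. None of 5 pituitary genes passed (1 before adjustment), with Prl, Fshb and Pou1f1 listed at 0 in every rat and sums of 23.5 to 48.1 FPKM in fructose rats and 8.08 to 31.5 FPKM in chow rats. None of 2 pineal genes passed (1 before adjustment), with Crx listed at 0, Asmt and Aanat highest, and sums of 2.27 to 4.97 FPKM in fructose rats and 2.44 to 4.43 FPKM in chow rats. Of 4 habenula genes 1 rose, Nr4a2, which the dopamine neuron list also holds, and with Irx2 it led sums of 11.2 to 18.6 FPKM in fructose rats and 5.08 to 12.8 FPKM in chow rats.

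The 4 tested members were set, within diet, against the further plexus genes and 10 of these lists (all but the pineal one), a step added after the data were seen. None of the 44 relations passed (permutation within diet, Benjamini-Hochberg over 44), with 4 under 0.05 before adjustment. The smallest p was for Clic6 with the ependymal genes, at r = 0.57 and rho = 0.71 (permutation p = 0.0201 and 0.00759, adjusted p = 0.369 and 0.252), with r = 0.90 in fructose rats, 0.49 in chow rats and 0.35 without the 2 rats farthest from the median. The other 3 before adjustment were Clic6 with endothelial genes (r = -0.55, rho = -0.67, permutation p = 0.0228 and 0.0115, adjusted p = 0.369 and 0.252), Folr1 with tanycyte genes (r = 0.62, rho = 0.53, permutation p = 0.0336 and 0.0930, adjusted p = 0.369 and 0.651) and Folr1 with dopamine neuron genes. For Folr1 with dopamine neuron genes r was -0.72 and rho -0.51 (permutation p = 0.0299 and 0.131, adjusted p = 0.369 and 0.651), and r was -0.11 without the 2 farthest rats. Ttr had r = -0.40 and rho = -0.15 with the further plexus genes (permutation p = 0.205 and 0.634, adjusted p = 0.646 and 0.871). Its r with them was -0.83 in fructose rats, 0.10 in chow rats and 0.08 without the 2 farthest rats.

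The genes whose deviations over the 13 rats were most like the mean standardized deviation of the 4 tested members were Odf2, Dzip1l, Chrm1, Dnaaf3, Ints4, Srpk3, Cdc14b, Kiaa0895l, Fam151a and Stx3, among 11268 tested genes with a named symbol. Their Pearson r with that mean ran from 0.83 for Odf2 to 0.75 for Stx3, given as a description of 13 rats.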

How the data were processed

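The authors deposited 1 table of FPKM, which counts fragments relative to transcript length and library size, with a column for each rat. The submitters' processing notes name Cufflinks 2.1.1, Cuffdiff, STAR 2.3.0e and build rn5, with no settings or annotation. Columns were matched to rats by title, groups come from the diet label, and replicates are numbered in accession order. Rats are separate animals, but cage mates are not identified, and titles split by diet in their first number. The members, lists and tests were chosen with earlier results of these data known.

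Values were taken to log2(FPKM + 0.5), and rows with a mean of at least 0.5 FPKM were fitted together with limma 3.58.1 in R 4.3.3 (trended empirical Bayes, two-sided), with Benjamini-Hochberg adjustment over all 11837. Errors of log2 changes are SE and those of FPKM are SD. Exact permutation used all 1716 splits, of which the smallest p is 0.000583. Library scales for fragment steps came from 240 rows above 0 in 3 to 9 rats and with values within 1.5-fold. Fragment numbers are estimates from these steps, and ratios to counting variance cover counting error only. The procedures were tested on simulated data. Named genes are the members, the 10 nearest in pattern, further plexus genes that passed or were highest, and the highest or listed-at-0 markers of 11 lists; the highest pituitary markers are not reported here. Other called list genes, 13 more plexus genes and the 10 nearest to Ttr alone were named after their values were seen. Alternatives were other pseudocounts, filters, scalings, weights and tests, and leaving out each rat.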

Additional observations from a re-analysis of the deposited data

Results flagged for a closer look

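Among 26 groups of values examined (7 members and 6 further plexus genes in each diet), 1 held a rat that stood apart by its gap to the nearest other rat. Ttr in fructose replicate 5 was 33.85 FPKM, and the next fructose rat was at 11.85 FPKM. The gap was 0.695 of the group's range in FPKM, past the critical ratio of 0.625 for 6 samples. Chance gives about 1 such gap in 20 groups. No other member stood apart in that rat by its gap in FPKM. The gaps were taken on FPKM without log, whereas the diet test and the correlations used a log scale. A gap at the top takes a smaller share of the range on a log scale. Whether fructose replicate 5 stands apart on that scale was not tested. Among the fructose rats Aqp1 was also highest in replicate 5, at 0.440 FPKM, and Folr1 second highest, at 2.77 FPKM. Clic6, Kl, Sostdc1 and Slc4a5 had their highest fructose values in replicates 6, 4, 4 and 1. Of the 36 further plexus genes, few had their highest fructose value in replicate 5, Kcne2 and F5 among them. Many more had their lowest fructose value there, Igf2 and Cp among them.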

How the results depend on the processing

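The members gave 0 calls under each alternative run. For the exact permutation test this was fixed in advance by the number of splits. Cp, at the smallest p that test can give (0.000583), had an adjusted p of 0.0663, so no gene could be called by it. Of the 6 pairs 0 were correlated under each alternative, among them leaving out fructose replicate 1 and chow replicate 1 together. Ttr and Folr1 stayed negative and Clic6 and Slc4a5 positive in all fits, with log2 fold changes of -1.741 to -1.006, -0.4789 to -0.2289, 0.3606 to 0.7935 and 0.01258 to 0.2511. Clic6, Slc4a5 and Mfrp have no value at a mean of at least 2 FPKM. Of the further plexus genes limma called 3 in the fit as reported and 6 with array weights. It called 5 without fructose replicate 1 and chow replicate 1, a choice made after the data were seen. The exact permutation test called 0 (10 before adjustment), and fits with 1 rat left out 0 to 4. Over all genes the count was 466 as reported, 308 with no filter and 1019 with array weights. It was 916 without fructose replicate 1 and chow replicate 1, and 0 by the exact permutation test (2223 before adjustment). With 1 rat left out it was 83 to 859, and the cause was not tested. Htr2c, which did not pass, ran from -0.02378 to 0.08527 with 1 rat left out. No paired analysis was possible because replicate numbers were given in accession order and pair nothing. Depth limits Kl, Aqp1 and Sostdc1 most, then Folr1, Clic6 and Slc4a5, with 156, 171 and 184 fragments in total over the resolved libraries. A shared change in these 6 members was not detectable below their counting spread.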

Other observations

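Ttr alone, an analysis added after the data were seen, had other nearest genes than the members together. The 10 tested genes with the highest Pearson r to Ttr within diet over the 13 rats were Dhx16, Ly6g6e, Tigd3, Dhodh, Avil, Pank4, Smarcal1, Kifc1, Jmjd6 and Vps52, with r from 0.90 to 0.80. In the assembly GRCr8, 4 of the 10 (Dhx16, Ly6g6e, Kifc1 and Vps52) lie on chromosome 20, which holds 3.00% of the 10659 tested genes with a chromosome there. Dhx16 was highest in the rats that were highest for Ttr, with 23.3 FPKM for fructose replicate 5 and 20.01 FPKM for chow replicate 3. Ly6g6e ran from 0.869 to 4.31 FPKM in fructose rats, again highest in replicate 5, and from 0.939 to 2.40 FPKM in chow rats. For Dhx16 the r was 0.98 within the fructose rats and 0.84 within the chow rats, and for Ly6g6e 0.92 and 0.89. These are the largest of 11271 values picked from the same 13 rats and are given as a description.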
